A study of Mus musculus with 6 samples.

Results

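The interferon response and class I antigen presentation were followed in primary mouse embryonic fibroblasts through 44 genes chosen by name, 35 of them interferon-stimulated genes and 9 of them genes of class I presentation. A gene was taken from the array where a probe's target name, ignoring case, was its symbol. The genes were kept for testing where at least 1 probe had a detection value of at least 0.95 on 3 or more of the 6 arrays, and the brightest such probe stood for the gene. By that rule 26 of the 44 were tested, 17 interferon-stimulated and 9 class I presentation genes, out of 12824 genes that passed it on the whole array. Of the other 18, 15 had probes that did not reach the filter, and Isg15, Irgm1 and Xaf1 had no probe of that name.

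The cultures were fibroblasts grown from C57BL/6 embryos of embryonic day 12.5 and passaged once in serum-containing medium. In the labels 3 cultures are Asciz-/- (knockout) and 3 are Asciz+/+ (wild type), and no interferon, virus or other stimulus is named for either. Atmin is the current symbol of Asciz, a gene for a zinc-finger protein that activates transcription. The sources used here do not state which part of it was deleted. The comparison shows how the resting level of these genes stood without that factor, and says nothing about their response to interferon.

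Fibroblasts sense viral nucleic acid with helicases such as RIG-I (Ddx58) and MDA5 (Ifih1), which act through the kinases TBK1 and IKK-epsilon (Ikbke) on the transcription factors IRF3 and IRF7. The interferon that is then secreted acts through its receptor on a transcription factor complex that holds STAT2 and IRF9. That complex binds the interferon-stimulated response element in promoters and switches on antiviral effectors, guanylate-binding GTPases and the machinery that loads peptides on class I molecules. In class I presentation the immunoproteasome cuts proteins, the TAP transporter carries the peptides into the endoplasmic reticulum, tapasin (Tapbp) helps load them, and H2-K1 or H2-D1 displays them at the surface with beta-2-microglobulin (B2m).

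Between 17580 and 18794 of 45281 probes per array were detected, and the median intensity per array lay between 88.7 and 97.9. Atmin stood at 8.78 ± 0.08 in wild-type and 6.79 ± 0.27 in knockout cultures (SD, n = 3 each). The difference of -1.99 had an SE of 0.16 and an adjusted p of 0.00730 by limma, in the direction its labels give. Its adjusted p lay between 0.0686 and 0.0844 when any 1 wild-type culture was left out, and was 0.0589 when the mean of its probes was used, which gave -1.28. These values, like all levels below, are background-corrected, quantile-normalized log2 intensities, and each difference is knockout minus wild type on that log2 scale. All 10 fibroblast markers were detected. Xist was detected in wild-type replicate 1 alone. The Y-linked genes Ddx3y and Eif2s3y stood at 5.37 and 4.35 there, against 9.80 to 10.48 and 8.45 to 8.88 in the other cultures. That culture thus read as female and the others as male, so sex was not balanced between the genotypes. The part of sex in the differences was not tested. Knockout replicate 3 correlated least with the remaining arrays (mean r across genes 0.980, the others 0.985 to 0.989), so the members were also compared without it. The number of arrays limited the precision. With 3 cultures per genotype an exact permutation test cannot go below 0.1, so single genes were tested with limma across all genes.

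No member passed an adjusted p of 0.05 by limma, with all 6 cultures or without knockout replicate 3. Over all genes 7 of 12824 passed (0.0546%), 4 higher and 3 lower (2 and 4 under median scaling of the arrays, 0 and 3 both with no background correction and in the authors' table, 8 and 4 with array weights). At an unadjusted p under 0.05 there were 3 members, Ikbke, Irf3 and Tap1, or 11.5% of 26 against a background of 7.75% of all genes. Knockout and wild-type values did not overlap for the same 3 members, and for 14.4% of all genes. Of the interferon-stimulated members 8 were above 0 and 9 below (median -0.0012). Of the class I members 6 were above 0 and 3 below (median 0.015). Over all genes 48.6% were above 0 with a median of -0.0069. Median scaling, which moved the median of all genes to -0.17, put 6 and 11 interferon-stimulated and 3 and 6 class I members above and below 0.

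**Figure D1:**
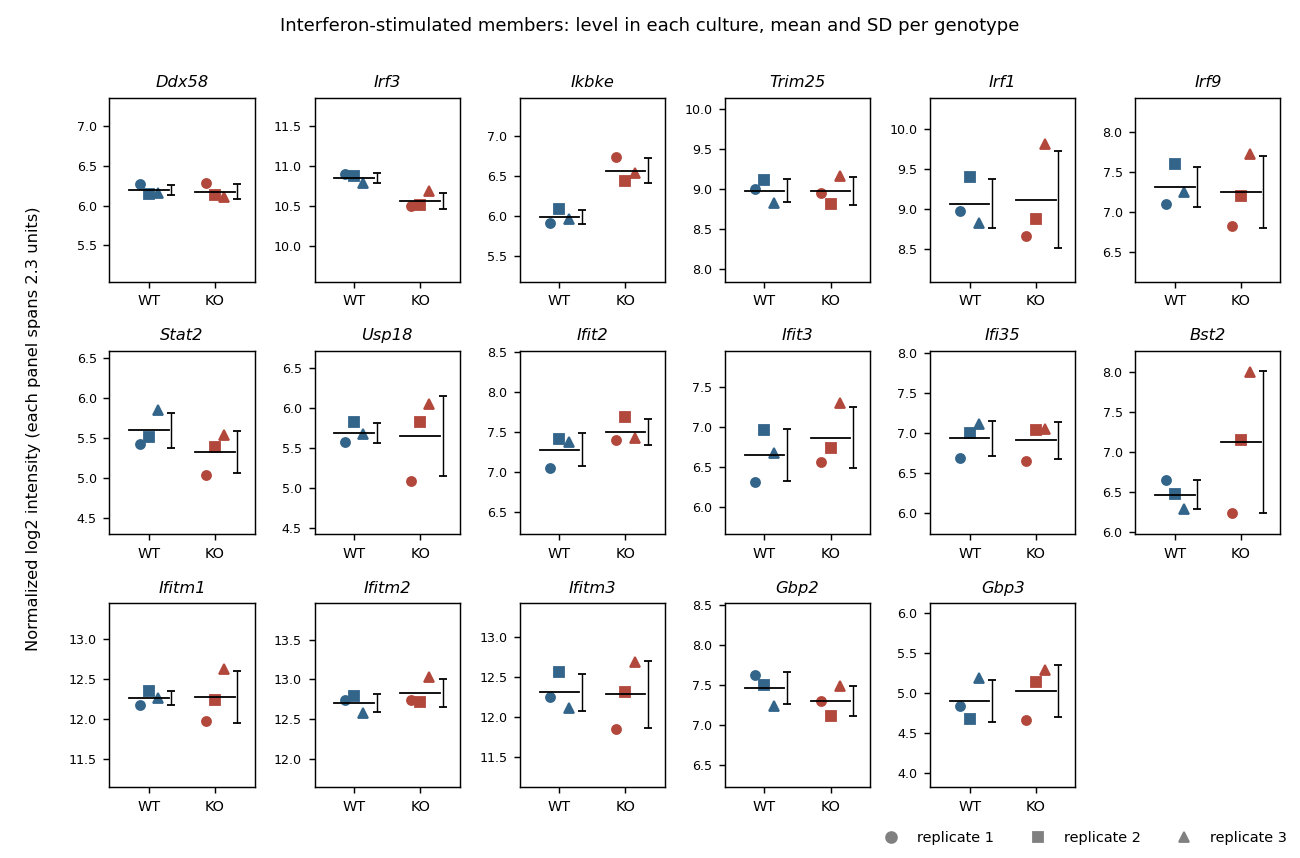
Normalized log2 intensity of the 17 tested interferon-stimulated members in each culture, with 3 wild-type (WT, blue) and 3 knockout (KO, red) points per gene, the mean as a line and the SD as a bar; the marker shape gives the replicate number. Only Ikbke and Irf3 have groups that do not overlap, and knockout replicate 3 is the highest knockout point for 14 of the 17 genes.

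Much of the inducible antiviral programme gave no signal above background. Of the 35 interferon-stimulated members, 12 were not well above background on any array: Ifit1, Isg20, Irf7, Mx1, Mx2, Oas1a, Oas2, Ifi27, Ifi44, Ifih1, Dhx58 and Iigp1. Mx1 and Mx2 are GTPase genes, the Oas genes encode sensors that make the activator of RNase L, and Irf7 encodes the factor that amplifies interferon production. Rsad2, which encodes viperin, and Oasl2 were detected on 1 knockout array each, and the GTPase gene Igtp on 1 knockout and 1 wild-type array. Rsad2, the brighter Oasl2 probe and Igtp were each highest in knockout replicate 3, at 5.15, 6.19 and 6.00. The 18 probes of these 15 genes lay between 75.5 and 127.5 intensity units with a median of 86.5, below the lowest array median of all probes. For these genes a genotype difference was not detectable on this array, and the detection filter left none of them for testing. The same filter also dropped Canx, which encodes the abundant chaperone calnexin and was not detected on any array, so a missed filter does not show that a gene was silent.

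The letters of interferon-response elements were found in detected and undetected genes alike. Promoters were taken from RefSeq (assembly GRCm38.p6, 250 bases before to 50 after the start) for 36 of the 44 genes. They were searched on both strands for GAAA and GAAA with any 2 bases between them, the core letters of the interferon-stimulated response element, and for TTCNNNGAA, those of the STAT-binding GAS element. The first was found in 8 of 16 tested and in 5 of 9 untested (below the filter) interferon-stimulated genes with a promoter, and in 3.99% of 27025 genes. The second was found in 5 and 3 of the same genes, and in 9.55% of all genes. Of the 8 class I genes with a promoter, B2m alone held the first and Psmb8 alone the second. The neighbours Ifit3 and Ifit1 on chromosome 19 are shown because their windows hold the same pair of response-element matches, while Ifit3 was detected on all 6 arrays and Ifit1 on none. The matches are in capitals, and read TTTC and TTTC where they lie on the opposite strand.
Ifit3, chr19:34583279-34583578, plus strand: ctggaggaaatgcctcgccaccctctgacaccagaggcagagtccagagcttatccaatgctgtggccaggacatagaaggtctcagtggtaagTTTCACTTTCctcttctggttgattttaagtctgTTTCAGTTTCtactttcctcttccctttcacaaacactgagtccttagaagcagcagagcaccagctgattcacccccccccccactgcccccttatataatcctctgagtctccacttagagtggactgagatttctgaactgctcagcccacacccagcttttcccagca
Ifit1, chr19:34640639-34640938, plus strand: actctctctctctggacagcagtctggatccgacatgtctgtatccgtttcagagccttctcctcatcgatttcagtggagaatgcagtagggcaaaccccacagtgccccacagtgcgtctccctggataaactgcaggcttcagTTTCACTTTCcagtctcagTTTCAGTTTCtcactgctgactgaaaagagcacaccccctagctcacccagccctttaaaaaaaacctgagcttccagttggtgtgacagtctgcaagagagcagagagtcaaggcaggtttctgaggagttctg
A match describes letters only, and binding was not measured here.

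Among the genes of sensing and signalling, Ikbke had the smallest p of all members. It encodes the kinase IKK-epsilon, which phosphorylates IRF3 and IRF7. Its level was 6.73, 6.43 and 6.53 in knockout replicates 1, 2 and 3 and 5.91, 6.09 and 5.96 in wild-type replicates 1, 2 and 3. All 3 knockout cultures lay above all 3 wild-type cultures. The difference was 0.58 (SE 0.13, 95% confidence interval 0.29 to 0.87), or 1.49-fold, with an unadjusted p of 0.00202 and an adjusted p of 0.462 by limma. It was 0.60 without knockout replicate 3 (SE 0.14, adjusted p = 0.519 by limma). The probe is dim: before normalization it read between 127.3 and 191.4 intensity units, with bead standard errors between 4.135 and 11 units. In those raw units the genotypes overlapped, with wild-type replicate 1 at 149.3 and knockout replicate 3 at 141.8. The difference was 0.30 with no background correction and 0.20 in the authors' normalized table. All values from that table are on the authors' own scale, whose log base is not stated. The adjusted p of Ikbke lay between 0.216 and 0.984 over all alternatives.

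Irf3 encodes the factor that IKK-epsilon and TBK1 phosphorylate, and it lay on the other side of 0. Its level was 10.50, 10.51 and 10.68 in knockout replicates 1, 2 and 3 and 10.89, 10.87 and 10.78 in the wild-type replicates in the same order. All knockout values were below all wild-type values. The difference was -0.28 (SE 0.11, limma adjusted p = 0.621), with a 95% confidence interval of -0.55 to -0.02. It was -0.34 without knockout replicate 3 and -0.47 under median scaling, where the median of all genes was -0.17. Its other 2 detected probes gave -0.22, with overlapping genotypes, and -0.29, with the genotypes apart. Ddx58, which encodes RIG-I, stood at 6.17 ± 0.09 in knockout and 6.19 ± 0.06 in wild-type cultures (SD, n = 3 each), a difference of -0.02 with an interval of -0.28 to 0.24. Trim25, which encodes the ubiquitin ligase that activates RIG-I, stood at 8.98 ± 0.18 and 8.98 ± 0.14, with an interval of -0.32 to 0.32.

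Of the 5 genes for transcription factors and feedback of the interferon signal, 4 were tested. Irf1, which encodes a transcription factor induced by interferon-gamma, was 8.67, 8.87 and 9.81 in knockout replicates 1, 2 and 3 and between 8.83 and 9.41 in wild type. The lowest and the highest of the 6 values were both knockout cultures. Irf9, the DNA-binding part of the interferon-activated complex, was 6.82, 7.20 and 7.73 in the knockout cultures and between 7.10 and 7.60 in wild type. Usp18, which encodes the protease that removes ISG15 and damps receptor signalling, was 5.09, 5.82 and 6.05 against 5.58 to 5.82. Their differences with all cultures were 0.05, -0.07 and -0.04, and without knockout replicate 3 they were -0.30, -0.30 and -0.24, none past the threshold (adjusted p between 0.724 and 0.802 without it by limma). The probes of Irf1 disagreed in sign, with 0.08, 0.22 and -0.17 for the other 3, and so did those of Irf9, with 0.12 for the other. Stat2, the partner of IRF9, was 5.03, 5.39 and 5.54 in knockout and 5.43, 5.51 and 5.85 in wild-type replicates 1, 2 and 3. Its difference was -0.27 (SE 0.18, adjusted p = 0.734 by limma). Without knockout replicate 3 it was -0.38 and its groups no longer overlapped, as 25.1% of all genes then did (adjusted p = 0.661). In the authors' table it was -0.062.

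Of the 15 antiviral effectors 4 were tested. Bst2, which encodes tetherin, the protein that holds budding virus at the cell surface, had the largest difference of all members and the widest spread. It was 6.23, 7.15 and 8.0 in knockout replicates 1, 2 and 3 and 6.64, 6.47 and 6.28 in wild-type replicates 1, 2 and 3. Knockout replicate 1 was the lowest of all 6 cultures and knockout replicate 3 the highest. The difference was 0.66 (SE 0.39, limma adjusted p = 0.714), with a 95% confidence interval of -0.25 to 1.58. It was 0.23 (SE 0.26) without knockout replicate 3, 1.11 without knockout replicate 1 and 0.33 in the authors' table. The Bst2 promoter is shown because it holds both element types side by side, with 2 overlapping response-element matches, the first of which also overlaps 1 GAS match, all in capitals.
Bst2, chr8:71537423-71537722, minus strand: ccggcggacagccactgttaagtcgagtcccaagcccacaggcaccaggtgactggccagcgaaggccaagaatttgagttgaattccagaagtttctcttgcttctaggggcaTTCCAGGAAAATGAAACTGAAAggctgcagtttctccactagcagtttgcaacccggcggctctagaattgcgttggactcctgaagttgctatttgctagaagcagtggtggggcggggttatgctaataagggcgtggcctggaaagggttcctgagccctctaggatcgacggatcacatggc

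Ifit2 and Ifit3 encode RNA-binding proteins that hold back translation of viral RNA. Ifit2 was 7.40, 7.69 and 7.43 in knockout and 7.05, 7.42 and 7.38 in wild-type replicates 1, 2 and 3. Its difference was 0.22 (SE 0.15, adjusted p = 0.741 by limma), and its second probe gave 0.05. Under median scaling it was 0.011, where the median of all genes was -0.17. Ifit3 was 6.56, 6.74 and 7.29 in knockout and 6.31, 6.96 and 6.67 in wild-type cultures. Its 0.22 (SE 0.23, adjusted p = 0.845 by limma) became 0.0020 without knockout replicate 3. Ifi35 stood at 6.92 ± 0.23 in knockout and 6.94 ± 0.22 in wild-type cultures (SD, n = 3 each). The genotypes overlapped for all 4 effectors.

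The interferon-induced membrane proteins, which stop viruses from fusing with endosomes, were bright in every culture. Ifitm1 was 11.97, 12.24 and 12.62 in knockout replicates 1, 2 and 3 and 12.17, 12.35 and 12.26 in wild-type replicates 1, 2 and 3. Ifitm3 was 11.85, 12.31 and 12.69 against 12.26, 12.56 and 12.11. Both had the same order among the knockout cultures as Bst2 and Irf9, with wild type between the extremes. Ifitm2 was 12.75, 12.71 and 13.03 against 12.75, 12.80 and 12.58. The differences were 0.02, -0.03 and 0.12 for Ifitm1, Ifitm3 and Ifitm2, with adjusted p between 0.848 and 0.989 by limma. Under median scaling Ifitm1 was at -0.09, where the median of all genes was -0.17. These genes are close relatives, and whether a probe reads only 1 of them was not tested.

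Of the interferon-induced GTPases, which act on membranes that surround pathogens, Gbp2 and Gbp3 were tested. Gbp2 was 7.30, 7.11 and 7.48 in knockout and 7.63, 7.50 and 7.24 in wild-type replicates 1, 2 and 3, which gave -0.16 (SE 0.15, adjusted p = 0.830 by limma). Gbp3 was detected on 2 arrays of each genotype and ranged from 4.66 to 5.29 in knockout and from 4.68 to 5.19 in wild-type cultures, a difference of 0.12 (SE 0.20).

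Tap1 had the smallest p among the class I presentation genes. It encodes a subunit of the peptide transporter, and it was 5.30, 5.44 and 5.36 in knockout and 5.62, 5.84 and 5.79 in wild-type replicates 1, 2 and 3. All knockout values were below all wild-type values. The difference was -0.38 (SE 0.12, 95% confidence interval -0.66 to -0.11), or 1.30-fold lower, with an unadjusted p of 0.0123 and an adjusted p of 0.556 by limma. Without knockout replicate 3 it was again -0.38 (adjusted p = 0.590), with no background correction -0.15 and in the authors' table -0.093. Its adjusted p lay between 0.335 and 0.984 over all alternatives. The probe read between 103.7 and 135 intensity units, with bead standard errors between 3.436 and 5.76 units, so the signal was close to background. Tap2, the partner subunit, was 5.86, 6.16 and 6.34 in knockout and 6.11, 6.23 and 6.14 in wild-type cultures, a difference of -0.04 with an interval of -0.38 to 0.30.

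Psmb9, a subunit of the immunoproteasome, starts head to head with Tap1, and the 300-base windows of both genes share 275 bases on opposite strands. Psmb9 was 5.04, 4.93 and 4.70 in knockout and 5.02, 4.49 and 4.85 in wild-type replicates 1, 2 and 3. Its difference was 0.10 (SE 0.17, adjusted p = 0.906 by limma), and it was detected on 2 arrays of each genotype. Tap1 and Psmb9 thus lay on opposite sides of 0, and the difference between their differences was not tested. The shared window is shown on the Tap1 strand, in lower case throughout because neither set of letters was found in it.
Tap1, chr17:34187306-34187605, plus strand: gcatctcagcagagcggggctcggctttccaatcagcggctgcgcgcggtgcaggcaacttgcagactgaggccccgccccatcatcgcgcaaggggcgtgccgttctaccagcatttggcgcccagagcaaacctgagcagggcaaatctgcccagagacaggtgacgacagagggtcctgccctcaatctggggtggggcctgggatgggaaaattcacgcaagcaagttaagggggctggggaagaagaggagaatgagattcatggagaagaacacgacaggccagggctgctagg

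Psmb10 and Psmb8 encode the other immunoproteasome subunits. Psmb10 was 9.19, 9.29 and 9.69 in knockout and 9.12, 9.20 and 9.16 in wild-type replicates 1, 2 and 3. Knockout replicate 1 lay just inside the wild-type range, and the other knockout cultures lay above it. The difference was 0.23 (SE 0.15, adjusted p = 0.735 by limma) and 0.09 without knockout replicate 3. Under median scaling it was 0.019, where the median of all genes was -0.17. Its second probe gave 0.35, with knockout values all above wild type. Psmb8 was 4.62, 5.18 and 5.83 in the knockout cultures and between 5.17 and 5.22 in wild type, a difference of 0.01 that was -0.30 without knockout replicate 3. Its probe read between 97 and 118.6 intensity units, close to background, and was detected on 2 knockout and 3 wild-type arrays. The constitutive subunits Psmb5, Psmb6 and Psmb7, which the immunoproteasome subunits replace, stood at 0.13, 0.13 and -0.07.

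The genes of the class I molecule itself did not separate by genotype. B2m was 13.05, 13.14 and 13.27 in knockout and 12.99, 13.22 and 13.21 in wild-type replicates 1, 2 and 3, a difference of 0.015 with an interval of -0.27 to 0.30, and its second probe gave -0.0094. The heavy chain gene H2-K1 was 5.31, 5.82 and 6.36 in knockout and 5.59, 5.96 and 5.55 in wild-type cultures. H2-D1, a heavy chain gene at another locus, was 9.53, 9.45 and 9.14 against 9.35, 9.52 and 9.47. Their differences were 0.13 (SE 0.26) and -0.07 (SE 0.14), and knockout replicate 3 was the highest knockout culture for H2-K1 and the lowest for H2-D1. Class I heavy chain genes are near copies of each other, so signal assigned to 1 of them may come from another. Tapbp stood at 5.93 ± 0.33 and 5.88 ± 0.26 in knockout and wild-type cultures (SD, n = 3 each).

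**Figure D2:**
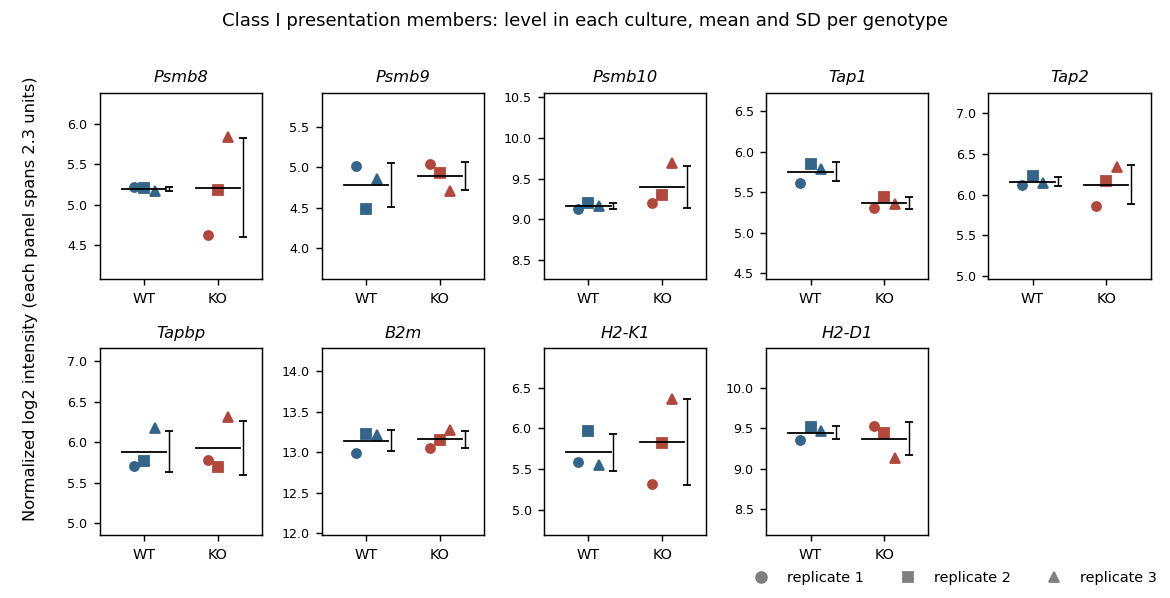
Normalized log2 intensity of the 9 tested class I presentation members in each culture, with 3 wild-type (WT, blue) and 3 knockout (KO, red) points per gene, the mean as a line and the SD as a bar; the marker shape gives the replicate number. Tap1 alone has groups that do not overlap. For Psmb8, whose probe lies close to background, the 3 wild-type points nearly coincide while the knockout points run from 4.62 to 5.83.

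The side of 0 on which most members stood depended on which culture was left out. Without knockout replicate 3 the interferon-stimulated members stood at 6 above and 11 below 0 with a median of -0.09, and the class I members at 3 above and 6 below with a median of -0.14. Without knockout replicate 1 they stood at 13 above and 4 below with a median of 0.17, and at 7 above and 2 below with a median of 0.092. Without wild-type replicate 2 the interferon-stimulated members stood at 13 above and 4 below, and the class I members at 4 above and 5 below. Without wild-type replicate 1, which read as female, the interferon-stimulated members stood at 9 above and 8 below. The class I members then stood at 4 above and 5 below with a median of -0.042. Over all genes 48.7% were above 0 without knockout replicate 3, with a median of -0.0060. Ikbke, Irf3 and Tap1 kept their direction and their gap between the genotypes without that culture. Genes whose groups do not overlap cannot lose either by leaving out a culture, so this adds no support. Without it 25.1% of all genes had groups that did not overlap. The count of members at an unadjusted p under 0.05 was again 3, against 7.67% of all genes, and 0 passed after adjustment, against 0.0468% of all genes.

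**Figure D3:**
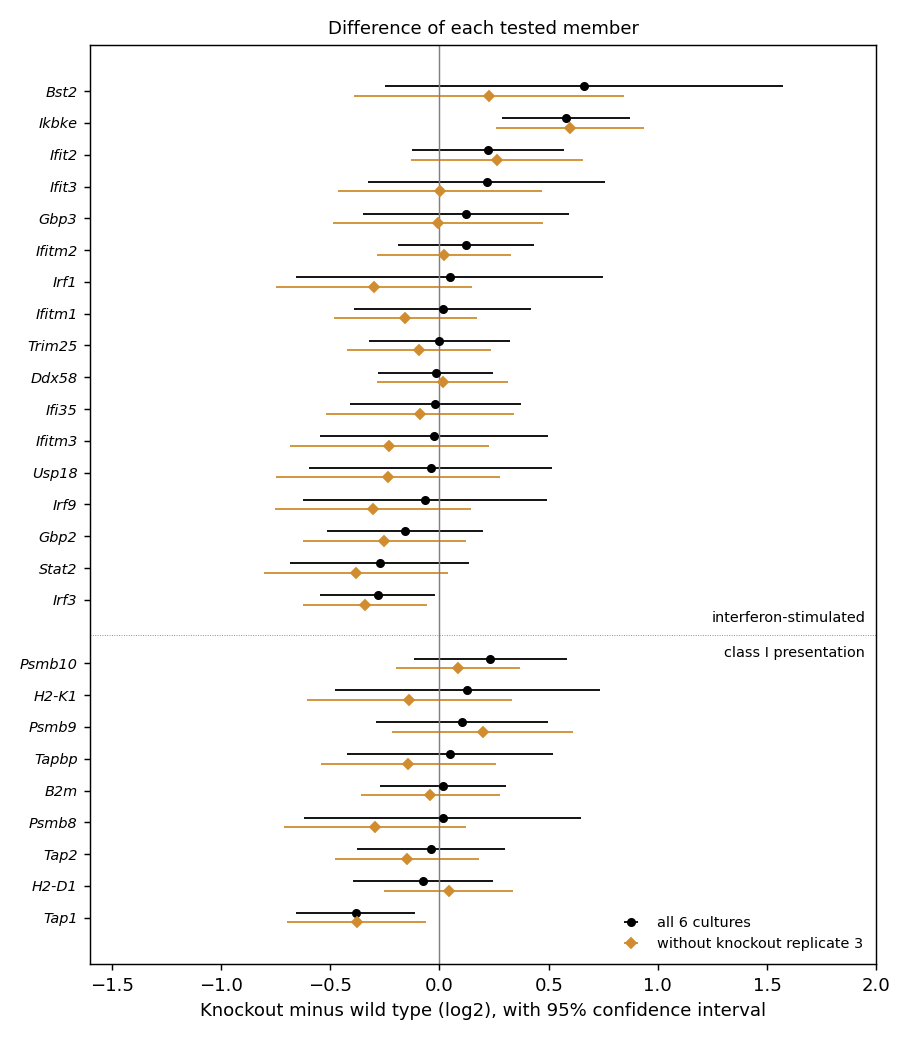
Knockout minus wild type on the log2 scale for each of the 26 tested members, with 95% confidence intervals from limma, for all 6 cultures (black circles) and without knockout replicate 3 (orange diamonds). Without that culture Bst2 goes from 0.66 to 0.23 and Irf1 from 0.05 to -0.30. Ikbke, Irf3 and Tap1 stay on their side of 0, as genes whose groups do not overlap must.

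The members shared an order of cultures within the knockout group. Knockout replicate 3 was the highest of the knockouts for 20 of 26 members, or 76.9%, against 37.3% of all genes tested. Knockout replicate 1 was the lowest for 18 of 26, or 69.2%, against 34.9% of all genes. Averaged over the 17 interferon-stimulated members, each centred on its own mean, the knockout cultures 1, 2 and 3 stood at -0.22, 0.0058 and 0.31 and the wild-type cultures at -0.10, 0.06 and -0.06. Averaged over the 9 class I members they stood at -0.17, -0.02 and 0.19 and at -0.06, 0.02 and 0.03. The wild-type cultures lay between the outer knockout cultures for both sets. The median range among the 3 knockout cultures was 0.51 for interferon-stimulated and 0.48 for class I members, against 0.37 and 0.23 among wild-type cultures, and against 0.36 and 0.28 for all genes.

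Markers of fibroblasts and of other cell types varied among the same cultures. Knockout replicate 3 was the highest knockout culture for 9 of 10 fibroblast markers, which averaged -0.52, -0.19 and 0.68 in knockout replicates 1, 2 and 3 and between -0.17 and 0.30 in wild type. Of these 10 markers 6 were above 0 and 4 below, with 0 past the threshold. Pdgfra had the smallest p of them, at -0.94 (SE 0.34, adjusted p = 0.601 by limma), with overlapping genotypes. All 11 tested macrophage and leukocyte markers of 22 listed were below 0 (median -1.04), 0 of them past the threshold and 8 with an unadjusted p under 0.05 by limma (0.0546% and 7.75% of all genes). Lyzs, C1qb and C1qc were detected on 1 knockout and 3 wild-type arrays each, Mrc1 on 1 and 2 and Ms4a7 on 0 and 3. These genes passed the filter mainly or only through wild type, which favours values below 0. The counts and the median are therefore no support for a direction. The 11 include Lyz2 and Lyzs, which RefSeq lists as names of 1 gene, and Lyz, listed as a name of its near copy Lyz1, so they are not separate genes in this count. Their summed level was 59.3 to 63.8 in knockout and 67.7 to 75.0 in wild-type cultures, lowest in knockout replicate 1 and highest among the knockouts in replicate 3. Of the 10 that missed the detection filter, Ptprc, Itgam and Cd52 were not well above background on any array, and Csf1r and C1qa were detected on 2 each. The smallest p of this list was that of Ms4a7, a membrane protein gene of macrophages (adjusted p = 0.190 by limma). No knockout array detected it. Its difference was -0.92, with an interval of -1.25 to -0.60. The measured fold was 1.90. With the lowest detected value per array as a floor, the lower bound of that fold was 1.57. Skeletal muscle markers stood the other way, with 13 of 14 above 0 (median 0.75), a summed level of 115.1 to 120.7 in knockout and 104.6 to 114.0 in wild-type cultures. None of the 14 passed the threshold, and 11 had an unadjusted p under 0.05 by limma, against the same shares of all genes. Actc1 had the smallest p of the 14, at 0.70 (SE 0.16, adjusted p = 0.462 by limma). Of 6 endothelial markers 3 were tested and all 3 were above 0 (median 0.63), with 0 past the threshold and 1, Flt1, at an unadjusted p under 0.05 by limma. They averaged -0.13, 0.29 and 0.69 in knockout replicates 1, 2 and 3 and between -0.69 and -0.06 in wild type, with a summed level of 22.4 to 24.9 and 20.7 to 22.6. Pecam1, Cdh5 and Kdr missed the detection filter. In a bulk culture fewer cells of a type and less RNA per cell cannot be told apart, and the part of these cell types in the members' values was not tested.

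**Figure D4:**
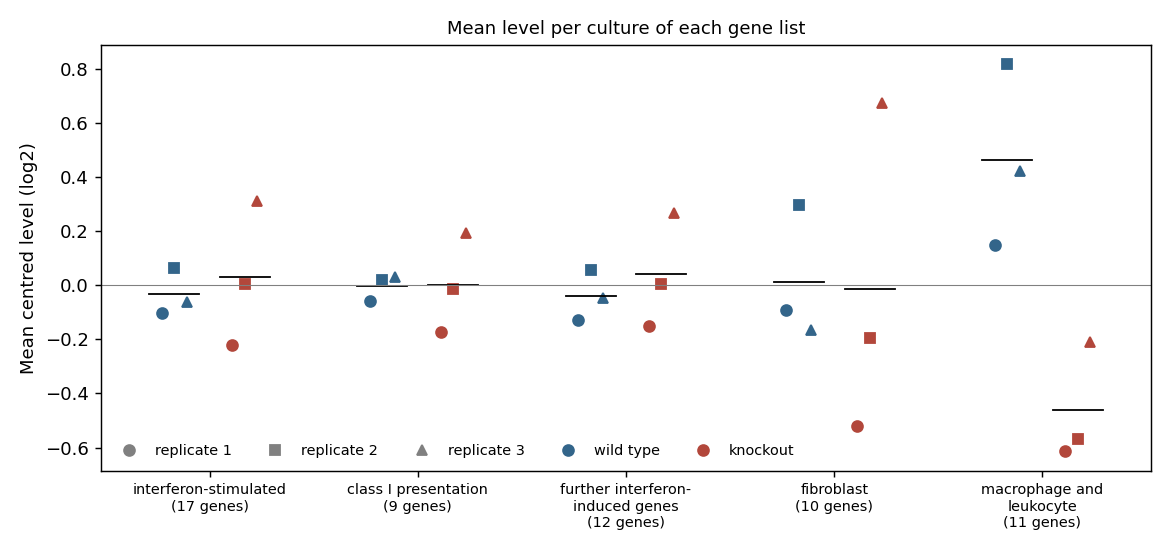
Mean over the genes of each list of the normalized log2 intensity, each gene centred on its mean over the 6 arrays, for 3 wild-type (blue) and 3 knockout (red) cultures, with the group mean as a line. Knockout replicate 3 is the highest culture for the first 4 lists, and the macrophage and leukocyte markers separate the genotypes, between -0.61 and -0.21 in knockout and between 0.15 and 0.82 in wild-type cultures. Some genes of that last list passed the detection filter mainly or only through wild type.

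Among other genes of the pathway, in 6 lists, none passed the threshold by limma. An unadjusted p under 0.05 was reached by 2 genes of interferon receptors and JAK-STAT signalling, 1 of nucleic acid sensing, 1 of class II presentation and 0 in the other lists, where 7.75% of all genes reached it. Of 12 tested genes for interferon receptors and JAK-STAT signalling, 4 were above 0 and 8 below (median -0.08). Socs1, which encodes the feedback inhibitor of JAK kinases, had the smallest p. It was detected on all 3 wild-type arrays and on 0 knockout arrays. It thus passed the filter only through wild type, which favours values below 0, so its rank is no support for a direction. Its difference was -0.39, with an interval of -0.70 to -0.08 (adjusted p = 0.601 by limma). The measured fold was 1.31. With the lowest detected value per array as a floor, the lower bound of that fold was 1.17. Tyk2, the JAK kinase bound to the type I interferon receptor, stood at -0.36 with the genotypes apart, as 14.4% of all genes did (adjusted p = 0.622).

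Of 8 tested genes of nucleic acid sensing, 2 were above 0 and 6 below (median -0.11). Trex1, the nuclease that clears DNA from the cytosol, had the smallest p. It was 7.27, 7.02 and 6.87 in knockout and 6.57, 6.54 and 6.77 in wild-type cultures, which gave 0.43 (SE 0.14, adjusted p = 0.589 by limma). The genes for interferon itself, Ifnb1 and Ifna4, were not well above background on any array. Of 12 tested further interferon-induced genes out of 42 listed, 8 were above 0 and 4 below (median 0.14), and Samd9l had the smallest p (-0.47, SE 0.27). Their mean per culture was also highest in knockout replicate 3, at 0.27, and lowest in knockout replicate 1, at -0.15. Of 12 tested genes for class I loading and other class I chains, 6 were above 0 and 6 below (median 0.02), and Psme2, a subunit of the interferon-inducible proteasome activator, had the smallest p (0.21, SE 0.14).

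Class II presentation, which fibroblasts use little without interferon-gamma, was near background. Of 8 listed names, H2-Aa, Cd74, Ciita and its older name C2ta were not well above background on any array, and H2-Dmb1 was detected on 1. H2-Dma, part of the chaperone that loads class II molecules, was 6.55, 6.56 and 6.72 in knockout and 6.21, 6.44 and 6.36 in wild-type replicates 1, 2 and 3, which gave 0.27 (SE 0.12, adjusted p = 0.647 by limma). H2-Eb1 stood at 0.37 (SE 0.16, adjusted p = 0.637) and was detected on 3 knockout arrays and 1 wild-type array. H2-Ab1 stood at 0.27 and was detected on 2 and 1 arrays. These 3 dim genes were above 0, where 48.6% of all genes were. H2-Eb1 and H2-Ab1 passed the filter mainly through knockout arrays, which favours values above 0. The shared side of 0 is therefore no support for a direction.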

How the data were processed

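RNA from 6 cultures, 3 knockout and 3 wild type by the labels, was biotin-labelled and hybridised to Illumina MouseWG-6 bead arrays. Per the file headers, the authors exported the mean bead intensity of each probe, the bead SD and the bead count with GenomeStudio version 1.6.0 without normalization. Each probe's detection value is, per the file headers, a fraction up to 1, and 1 minus it served as the detection p. The authors also deposited a normalized score, which the submitters' processing notes tie to lumi; its log base is not stated, and it was an alternative. Of 48 value columns of the unnormalized table, 24 match no sample here and were not used, and the value table of the series was not used because it held the same values under other names.

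The neqc function of limma version 3.58.1 (R version 4.3.3, offset 16) corrected the background, normalized by quantiles and took log2. Of 45281 probes 18221 passed the detection filter; the brightest per target name gave 12824 genes. They were fitted with lmFit and eBayes, two-sided, Benjamini-Hochberg adjusted over all of them, threshold 0.05. The design text names separate embryos per genotype. Where no array of a group detected a gene, a lower bound of the fold is also given. It sets the bright group's mean against the higher of the gene's own value and the lowest detected value per array. The median bead count was 43 on every array.

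Members and lists were chosen with earlier results of these data known. Described in full were members past the threshold, those whose groups did not overlap and the 3 smallest p per role; of other lists the smallest p. Further genes named were chosen after their values were seen. Alternatives covered background, scaling, the authors' table, the detection filter, the choice of probe, variance and array weights, the replicate number and left-out cultures. Deviations of same-numbered cultures from their group means correlated at 0.23, -0.19 and -0.20 across genes. Such deviations cancel out within each group, so these values cannot decide whether the cultures were paired. The result for 1 gene of the listed pathway genes is not reported here.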

Additional observations from a re-analysis of the deposited data

How the results depend on the processing

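No alternative out of 18 called a member, and the smallest adjusted p of any member was 0.216, for Ikbke with array weights. With that setting 5 members had an unadjusted p under 0.05, and under each other setting 2 or 3 did. The count over all genes, 7, was 3 without background correction, 3 in the authors' table, 12 with array weights and 2 to 6 with 1 culture left out. With the replicate number as a block 6 genes and 0 members passed; the labels give no shared origin for equal numbers. Of 9 members with several detected probes, 6 had all probes on the same side of 0. Ikbke, Irf3, Stat2, Bst2, Ifit2, Ifitm2, Gbp2, Tap1 and Psmb10 kept their sign under all 18. For Ikbke, Irf3 and Tap1, whose genotypes did not overlap, leaving out cultures could not change it. The median of the interferon-stimulated members lay between -0.19 (median scaling, with the median of all genes at -0.17) and 0.17 (without knockout replicate 1). The class I median of 0.015 was between -0.14 and 0.092 with 1 culture left out and -0.17 without wild-type replicate 1 and knockout replicate 3. Without both, Ddx58 was 0.051, Ifit3 -0.17, Ifitm1 -0.20 and Gbp3 -0.038. Under median scaling Ifitm1 was -0.087, with the mean of all probes Irf9 was 0.029, and with array weights Usp18 was 0.060, Ifitm3 0.016 and Ifitm1 -0.00047. Leaving out 1 culture gave -0.072 to 0.019 for Ddx58, -0.30 to 0.15 for Irf9, -0.24 to 0.24 for Usp18, -0.23 to 0.19 for Ifitm3, -0.16 to 0.17 for Ifitm1, -0.0070 to 0.31 for Gbp3 and -0.046 to 0.22 for Psmb9. The cause of these moves was not tested. Gbp3 and Psmb9 gave no value when detection on all 6 arrays was required. Dim probes near background, such as those of Tap1 and Ikbke, depend on the background correction. The probes of Stat2 (107 to 138 intensity units), Usp18 (109.4 to 132.8) and H2-K1 (115.9 to 134.4) were similarly dim.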

Other observations

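Irgm1, a GTPase gene of the interferon-gamma response, had no probe of that name, but 3 detected probes carried IRGM, a synonym that the RefSeq gene table gives to Irgm1 alone. They were looked up after the members' values were seen. The brightest was 12.78, 12.72 and 12.70 in knockout replicates 1, 2 and 3 and 12.42, 12.44 and 12.40 in the wild-type replicates in the same order, so that all knockout values lay above all wild-type values. Its difference was 0.32 (SE 0.10, adjusted p = 0.589 by limma), and 6.87% of all genes had knockout values all above wild type. The other probes gave 0.12 and -0.01, both with overlapping groups.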
